A study of Mus musculus with 8 samples.

Results

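Toll-like receptors sense conserved microbial molecules, and the 10 genes described here are the receptors Tlr1, Tlr2, Tlr3, Tlr4, Tlr6, Tlr7, Tlr9 and Tlr13 together with Cd14 and Ly96, which help Tlr4 to bind LPS. They were taken by name from a deposited table of 23366 genes, in which all 10 were present and passed the filter on low values. RNA was sequenced from C57BL/6 mouse macrophages grown from bone marrow at passage 1, all kept without serum for 24 h. There were 4 groups of 2 libraries each: Lsd1SA/SA knock-in cells given LPS for 2 h, untreated knock-in cells, wild-type cells given LPS for 2 h and untreated wild-type cells. The Lsd1SA/SA allele encodes phosphorylation-defective LSD1, a histone demethylase. LPS, from the outer membrane of Gram-negative bacteria, has a label dose of 1 mg/ml. Whether the libraries of a group stem from different cultures or mice is not labelled, and the p-values reflect only the spread between libraries, which may be technical.

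On the cell surface, Tlr4 binds LPS with the help of CD14, which hands LPS over, and MD-2, the product of Ly96, which holds it. Tlr2 pairs with Tlr1 or Tlr6 to bind bacterial lipoproteins. The endosomal receptors recognise nucleic acids: Tlr3 binds double-stranded RNA, Tlr7 single-stranded RNA, Tlr9 unmethylated CpG DNA and Tlr13, a receptor of mice that humans lack, bacterial ribosomal RNA. Macrophages carry most of these receptors before they meet a microbe, and several of the genes are themselves known to respond to LPS.

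Promoter letters are shown for Tlr2, Tlr3 and Tlr6, the receptors with a motif match, whose changes with LPS are set out further on. Of the 10 genes, 6 matched RefSeq promoters on GRCm38.p6 (8 entries, each from 250 bases before to 50 bases after an annotated start), namely Tlr1, Tlr2, Tlr3, Tlr6, Tlr9 and Tlr13. Both strands were searched for an NF-kB-like motif (GGG, any 2 bases, TT, any base, CC), found in 4.79% of all 32851 mouse promoters of that length, and for an interferon-response-like motif (GAAA, any 2 bases, GAAA), found in 3.44%. The 30 bases around each match are shown 5′ to 3′ on the gene's own strand, with the matched letters in capitals; the Tlr6 stretch holds 2 overlapping matches to the reverse of the interferon-response-like motif, which reads TTTC, any 2 bases, TTTC.
Tlr2: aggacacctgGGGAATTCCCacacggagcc
Tlr3: agttgtttctGGGAGTTTCCtgcttttgag
Tlr6: ctattctTTTCTCTTTCACTTTCtgtttga
The Tlr2 stretch lies at chr3:83841761-83841790 on the minus strand, and its match, which reads the same on both strands, begins 172 bases before the RefSeq start. The Tlr3 stretch lies at chr8:45410572-45410601 on the minus strand, begins its match 211 bases before that start and falls within an annotated GENCODE exon. The Tlr6 stretch lies at chr5:64959260-64959289 on the minus strand, and its matches begin 116 and 110 bases before the start of 1 of 2 entries for the gene. No entry of Tlr1, Tlr9 or Tlr13 held either motif. The 250 bases before the start of Tlr9, at chr9:106222348-106222597 on the plus strand, are shown because Tlr9 was the receptor whose LPS effect differed most between genotypes in the upward direction.
Tlr9: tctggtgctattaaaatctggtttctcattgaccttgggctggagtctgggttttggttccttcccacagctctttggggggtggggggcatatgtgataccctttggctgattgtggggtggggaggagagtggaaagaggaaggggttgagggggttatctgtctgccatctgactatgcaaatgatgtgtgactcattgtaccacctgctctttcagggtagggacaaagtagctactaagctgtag
These matches describe letters in a window and do not show that a factor binds there.

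Libraries held 40379258 to 55595160 reads, and every member had at least 520 reads (Ly96) in every library. Levels are the deposited values, read counts scaled by library in the form of TMM-scaled CPM (reads relative to library size, corrected for library composition). They are called levels below. The macrophage markers Csf1r, Emr1, Cd68, Itgam, Mrc1, Fcgr1 and Mertk summed to between 6160 and 7634 in each library. That sum does not show shifts of single markers, some of which are given further on. Before any result that uses them, the libraries labelled knock-in with LPS stood apart by sex: Xist, the RNA of the inactive X chromosome, was at 0.366 and 0.212 in them and between 315 and 437 in the other 6, and 4 genes of the Y chromosome (Kdm5d, Uty, Ddx3y and Eif2s3y) summed to 4993 and 5122 reads in them against at most 2 in any other library. Every comparison that uses those libraries therefore contrasts cells of different sex as well as the labels, and these cannot be told apart. Whether these 2 libraries hold the cells and treatment that their labels name was not tested, and directions drawn from them rest on the labels. Their titles name the knock-in and 2 h but not LPS, which their descriptions name. Titles of the wild-type libraries at 2 h do name LPS. Stromal and fibroblast markers summed to 81.3 and 81.4 in the knock-in LPS libraries, 27.0 and 29.3 in untreated knock-in libraries, 23.5 and 24.9 in wild type with LPS, and 21.9 and 25.3 in untreated wild type. Against untreated knock-in cells, 9 of their 10 tested members rose (limma, adjusted p under 0.05), where 28.5% of all tested genes rose.

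**Figure D1:**
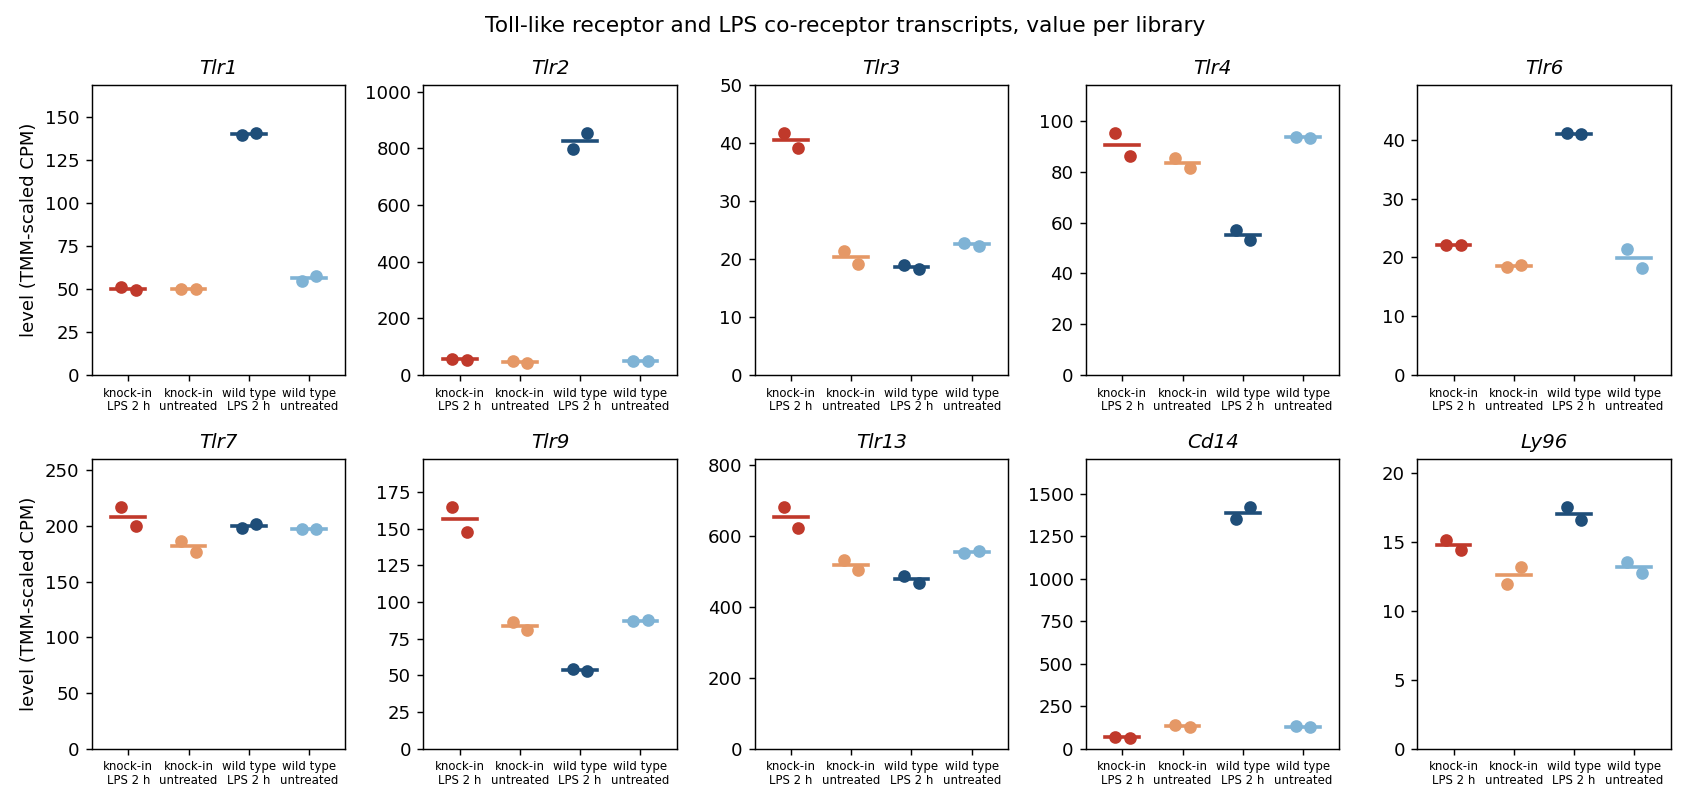
Level (TMM-scaled CPM) of each of the 10 members in every library, with a bar at each group mean (2 libraries per group). Tlr2, Cd14, Tlr1 and Tlr6 were highest in wild-type cells with LPS, while Tlr3 and Tlr9 were highest in the libraries labelled knock-in with LPS.

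Of the 10 members, Tlr2 and Cd14 differed most between the genotypes after LPS. In the libraries labelled knock-in with LPS, Tlr2 was at 1.19 times and Cd14 at 0.496 times the untreated knock-in level, whereas in wild-type macrophages LPS raised Tlr2 17.3-fold and Cd14 10.7-fold. Tlr1 and Tlr6, the partners of Tlr2, were at 1.00 and 1.19 times the untreated level in the knock-in and rose 2.49-fold and 2.07-fold in wild type. Tlr3, Tlr9 and Tlr13 rose in the knock-in comparison and fell in wild type, where Tlr4 also fell. No member passed the test between the untreated genotypes.

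Among the surface receptors, Tlr2 was at 57.9 and 51.5 in knock-in cells with LPS, 48.3 and 43.4 in untreated knock-in cells, 798 and 854 in wild type with LPS, and 47.4 and 48.3 in untreated wild type. Both wild-type LPS libraries were far above the other 6, whose values lay within a narrow band, and the knock-in LPS libraries lay just above the untreated knock-in ones without overlap. The log2 change with LPS was 0.25 ± 0.061 (SE) in the knock-in (limma adjusted p = 0.00130) and 4.08 ± 0.061 in wild type (limma adjusted p = 1.74e-25). Without knock-in LPS replicate 1 the knock-in change was 0.17 (limma adjusted p = 0.0573), with adjusted p from 3.16e-04 to 0.0573 over the alternatives run. In bulk RNA, fewer cells of a type and less RNA per cell cannot be told apart, for this gene or any other below.

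Tlr1 was at 51.2 and 49.2 in knock-in cells with LPS, 50.02 and 50.2 in untreated knock-in cells, 139.6 and 141 in wild type with LPS, and 54.9 and 57.7 in untreated wild type. Tlr6 was at 22.1 and 22.0 in knock-in cells with LPS, 18.4 and 18.7 in untreated knock-in cells, 41.1 and 41.0 in wild type with LPS, and 21.5 and 18.2 in untreated wild type. The wild-type LPS libraries were again the high ones for both genes. The log2 change of Tlr1 with LPS was 0.0018 in the knock-in, with a 95% interval of -0.11 to 0.11 (limma adjusted p = 0.982), and 1.30 ± 0.054 (SE) in wild type (limma adjusted p = 2.58e-16). The sign of the knock-in value turned under 4 of the alternatives, down to -0.036. Tlr6 rose by 0.24 ± 0.078 in the knock-in comparison (limma adjusted p = 0.0123) and by 1.02 ± 0.078 in wild type (limma adjusted p = 4.61e-11). That knock-in call was lost without knock-in LPS replicate 1 (limma adjusted p = 0.0546) and without untreated knock-in replicate 1 (limma adjusted p = 0.0651), with adjusted p from 0.00460 to 0.0651 over the alternatives run. Tlr1 and Tlr6 are close paralogs that lie near each other on chromosome 5, and how the authors treated reads that fit both is not given in the sources used here.

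The LPS receptor itself went the other way in wild type. Tlr4 was at 95.3 and 86.2 in knock-in cells with LPS, 85.7 and 81.4 in untreated knock-in cells, 57.1 and 53.3 in wild type with LPS, and 93.8 and 93.6 in untreated wild type. The wild-type LPS libraries were the lowest of the 8. The log2 change of Tlr4 in the knock-in was 0.12, with a 95% interval of -0.0038 to 0.24 (limma adjusted p = 0.0922), and in wild type Tlr4 fell by 0.75 on the log2 scale (SE 0.058, limma adjusted p = 4.68e-11). Without knock-in LPS replicate 2 the knock-in change was 0.19 and passed (limma adjusted p = 0.0316), with adjusted p from 0.0316 to 0.638 over the alternatives run.

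The co-receptors differed from Tlr4 and from each other. Cd14 was at 67.3 and 65.1 in knock-in cells with LPS, 136 and 130.2 in untreated knock-in cells, 1348 and 1421 in wild type with LPS, and 133 and 126 in untreated wild type. The knock-in LPS libraries were the lowest and the wild-type LPS libraries the highest, with the 4 untreated libraries together in between. Cd14 fell by 1.00 on the log2 scale in the knock-in comparison (SE 0.049, limma adjusted p = 1.39e-14) and rose by 3.41 in wild type (SE 0.049, limma adjusted p = 8.22e-26).

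Ly96 was at 15.2 and 14.5 in knock-in cells with LPS, 11.9 and 13.2 in untreated knock-in cells, 17.6 and 16.6 in wild type with LPS, and 13.6 and 12.8 in untreated wild type. In both genotypes the LPS libraries were slightly above the untreated ones. Ly96 rose by 0.22 on the log2 scale in the knock-in comparison (SE 0.088, limma adjusted p = 0.0357) and by 0.35 in wild type (SE 0.088, limma adjusted p = 0.00146). The knock-in call was lost with no filter (limma adjusted p = 0.0638) and without knock-in LPS replicate 1 (0.175), knock-in LPS replicate 2 (0.0666) or untreated knock-in replicate 1 (0.270), with adjusted p from 0.0258 to 0.270 over the alternatives run.

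Of the endosomal receptors, Tlr9 was at 165 and 148 in knock-in cells with LPS, 86.1 and 80.7 in untreated knock-in cells, 54.3 and 52.8 in wild type with LPS, and 86.7 and 87.7 in untreated wild type. The knock-in LPS libraries were highest, the wild-type LPS libraries lowest, and the 4 untreated libraries lay between. Tlr9 rose by 0.90 on the log2 scale in the knock-in comparison (SE 0.057, limma adjusted p = 2.01e-12) and fell by 0.69 in wild type (SE 0.057, limma adjusted p = 1.57e-10).

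Tlr3 was at 41.7 and 39.2 in knock-in cells with LPS, 21.4 and 19.2 in untreated knock-in cells, 19.0 and 18.3 in wild type with LPS, and 22.9 and 22.2 in untreated wild type. The knock-in LPS libraries stood well above the other 6, and the wild-type LPS libraries were the lowest. Tlr3 rose by 0.96 on the log2 scale in the knock-in comparison (SE 0.075, limma adjusted p = 9.93e-11) and fell by 0.26 in wild type (SE 0.075, limma adjusted p = 0.00476). An annotated antisense gene overlaps Tlr3, and the strand setting of the counts is not given in the sources used here, so reads of Tlr3 and its antisense partner cannot be told apart.

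Tlr13 and Tlr7 lie on the X chromosome. Tlr13 was at 681 and 622 in knock-in cells with LPS, 531 and 502 in untreated knock-in cells, 488 and 466 in wild type with LPS, and 552 and 556 in untreated wild type. The knock-in LPS libraries were highest and the wild-type LPS libraries lowest, as for Tlr9 but over a smaller span. Tlr13 rose by 0.33 on the log2 scale in the knock-in comparison (SE 0.049, limma adjusted p = 3.75e-06) and fell by 0.22 in wild type (SE 0.049, limma adjusted p = 6.16e-04). After quantile normalization the wild-type change of Tlr13 was -0.63.

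Tlr7 was at 217 and 199.9 in knock-in cells with LPS, 187 and 177 in untreated knock-in cells, 198 and 202 in wild type with LPS, and 198 and 197 in untreated wild type. Wild-type libraries of both conditions lay within a few units of each other. Tlr7 rose by 0.19 on the log2 scale in the knock-in comparison (SE 0.049, limma adjusted p = 0.00184), a call lost without knock-in LPS replicate 1 (0.14, limma adjusted p = 0.0704), with adjusted p from 5.82e-04 to 0.0704 over the alternatives run. Its change in wild type was 0.021, with a 95% interval of -0.081 to 0.12 (limma adjusted p = 0.742), but -0.39 after quantile normalization (limma adjusted p = 1.17e-06), with adjusted p from 1.17e-06 to 0.929 over the alternatives run. For both X-linked receptors, sex and treatment cannot be told apart in the knock-in comparison.

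**Figure D2:**
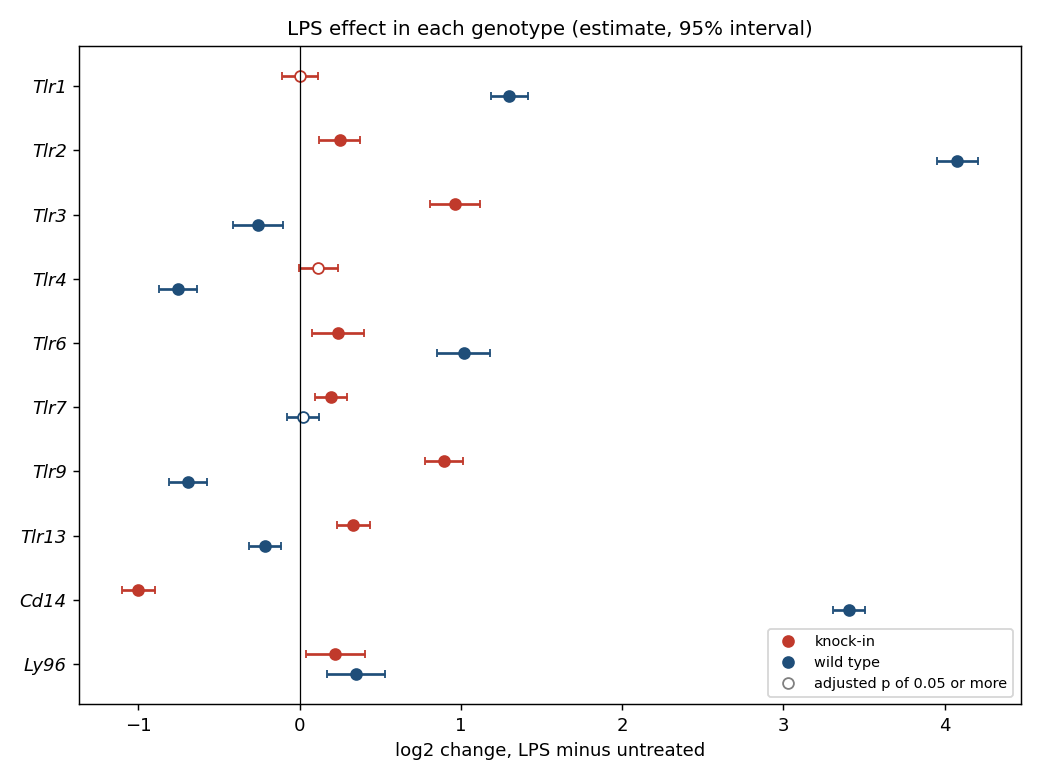
Log2 change with LPS (LPS minus untreated) of each member in knock-in and wild-type cells, as the limma estimate with its 95% interval; open points did not pass an adjusted p of 0.05. Cd14, Tlr3, Tlr9 and Tlr13 passed on opposite sides of 0 in the 2 genotypes, and Tlr2 was at 0.25 in knock-in and 4.08 in wild type.

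Counted over the 10 members, 7 rose and 1 fell with LPS in the knock-in comparison (limma, adjusted p under 0.05), where 56.7% of the 11919 tested genes were called (28.5% rose and 28.3% fell). That count was 3 higher and 1 lower without knock-in LPS replicate 1, and 5 higher and 1 lower without untreated knock-in replicate 1. In wild type, 5 members rose and 4 fell, where 57.6% of tested genes were called (26.8% rose and 30.7% fell). Of all wild-type calls 46.6% were higher with the deposited scaling and 35.4% after quantile normalization. That share was 52.0% with median-of-ratios scaling, 51.6% in edgeR and 51.7% in DESeq2. The median log2 change of the members was 0.23 in the knock-in and 0.19 in wild type, against 0.016 and -0.032 over all tested genes. Most tested genes were called in each comparison, and whether the share of members called differs from that background was not tested.

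The effect of LPS differed between the genotypes for 9 of the 10 members in the interaction test, 5 with a higher and 4 with a lower change in the knock-in, where 63.7% of tested genes were called (31.8% in each direction). The difference, knock-in effect minus wild-type effect on the log2 scale, was -4.41 ± 0.069 (SE) for Cd14 (limma adjusted p = 2.18e-24) and -3.83 ± 0.086 for Tlr2 (limma adjusted p = 2.05e-21). For Tlr1 it was -1.30 ± 0.077 (limma adjusted p = 4.12e-13) and for Tlr6 -0.78 ± 0.11 (limma adjusted p = 1.61e-06). The members with a lower change in the knock-in were thus Tlr2, its partners and Cd14. On the other side, the difference was 1.59 ± 0.080 for Tlr9, 1.22 ± 0.11 for Tlr3, 0.87 ± 0.082 for Tlr4 and 0.55 ± 0.070 for Tlr13, with a limma adjusted p of at most 2.93e-07. Tlr7 passed narrowly at 0.17 ± 0.070 (limma adjusted p = 0.0340) and did not pass under 8 of the 18 alternatives, with adjusted p from 3.18e-06 to 0.216. After quantile normalization the Tlr7 difference was 0.51, and that of Tlr13 was 1.02. Those 8 included leaving out knock-in LPS replicate 1 (0.11), untreated knock-in replicate 2 (0.13) or either wild-type LPS library, and the recovered reads in edgeR (0.13) or DESeq2 (0.15). Ly96 was at -0.13, with a 95% interval of -0.39 to 0.13 (limma adjusted p = 0.373).

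Compared directly after LPS, knock-in cells were at 0.0478 times the wild-type mean for Cd14, 0.0662 times for Tlr2, 0.358 times for Tlr1 and 0.537 times for Tlr6. Group means were 66.2 ± 1.57 and 1385 ± 51.6 for Cd14, and 54.7 ± 4.51 and 826 ± 39.3 for Tlr2, in knock-in and in wild-type cells with LPS (SD, n = 2 each). Knock-in cells were higher 2.92-fold for Tlr9, 2.17-fold for Tlr3, 1.64-fold for Tlr4 and 1.37-fold for Tlr13. The log2 difference of Tlr13 was 0.45 with the deposited scaling and 0.91 after quantile normalization. All 8 of these genes passed, 4 higher and 4 lower (limma adjusted p of at most 1.65e-08), where 75.4% of tested genes were called (38.5% higher and 36.8% lower). Tlr7 did not pass (log2 difference 0.057, 95% interval -0.045 to 0.16, limma adjusted p = 0.297), although after quantile normalization it was 0.38 and passed (limma adjusted p = 9.89e-07), with adjusted p from 9.89e-07 to 0.982 over the alternatives run. Ly96 stood at the threshold (log2 difference -0.19, 95% interval -0.37 to -0.010, limma adjusted p = 0.0517) and passed under 10 of 19 alternatives, at adjusted p of 0.0129 to 0.210 over all of them.

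Without LPS, none of the 10 members differed between the genotypes by limma, edgeR or DESeq2. In limma 0.00839% of tested genes passed, and 3 of the 10 members had an unadjusted p under 0.05, as did 13.6% of all tested genes. Those members were Tlr1 (log2 difference -0.16, 95% interval -0.28 to -0.051), Tlr4 (-0.16, -0.28 to -0.043) and Tlr7 (-0.12, -0.22 to -0.014). The estimates, knock-in minus wild type on the log2 scale, ran from -0.16 for Tlr1 to 0.042 for Cd14, and 9 of the 10 were below 0. Across the members the 95% intervals reached from -0.30 to 0.14.

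**Figure D3:**
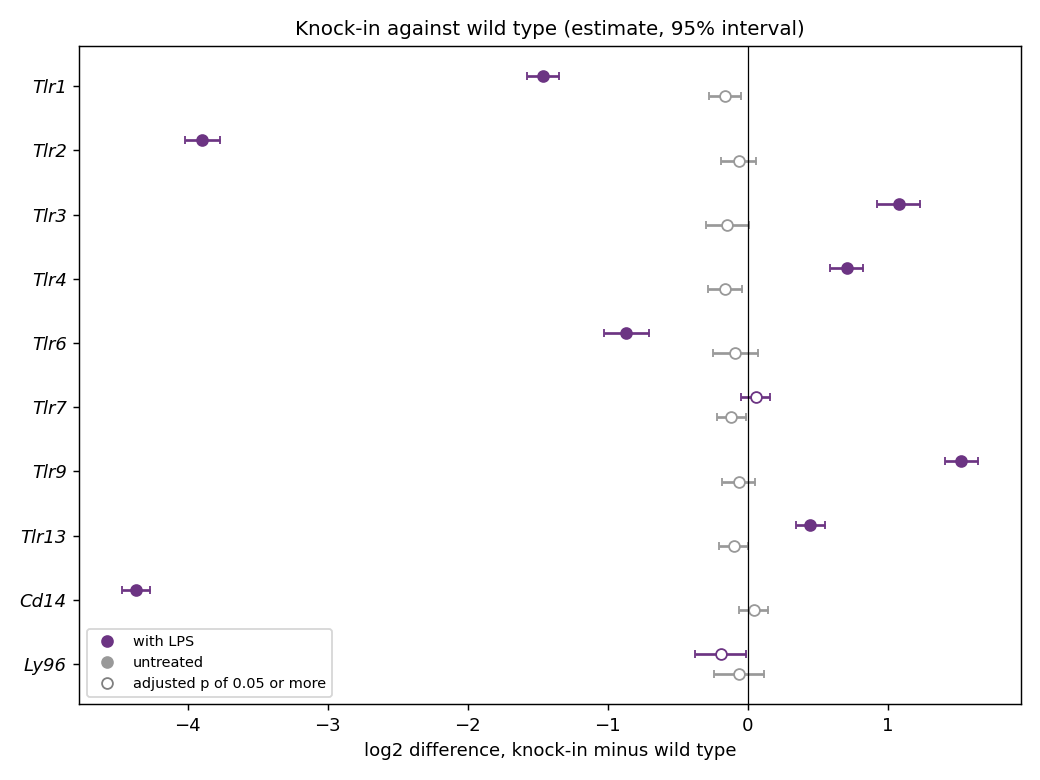
Log2 difference between genotypes (knock-in minus wild type) of each member with LPS and untreated, as the limma estimate with its 95% interval; open points did not pass an adjusted p of 0.05. Untreated differences lie between -0.16 and 0.042, while with LPS they run from -4.37 for Cd14 to 1.53 for Tlr9.

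Levels of different genes were compared per kilobase of each gene's principal transcript in GENCODE. In untreated knock-in cells Tlr13 was the most abundant member at 127 per kilobase, followed by Cd14 at 81.2, Tlr7 at 46.7 and Tlr9 at 24.0. In untreated wild-type cells the same 4 led at 136, 78.9, 50.6 and 25.1 per kilobase. Tlr4 stood at 20.5 and 23.0, Ly96 at 19.9 and 20.9, Tlr1 at 16.6 and 18.6 and Tlr2 at 15.2 and 15.9 per kilobase in untreated knock-in and wild-type cells. Tlr6 and Tlr3 were lowest in both, at 5.05 and 4.60 per kilobase in the knock-in and at 5.40 and 5.11 per kilobase in wild type. Neighbours in this order overlapped between libraries for Tlr4 and Ly96 in the knock-in and for Tlr6 and Tlr3 in wild type.

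With LPS the order in the knock-in libraries was headed by Tlr13 at 161, Tlr7 at 53.5, Tlr9 at 44.9 and Cd14 at 40.3 per kilobase, followed by Ly96, Tlr4, Tlr2, Tlr1, Tlr3 and Tlr6, of which Ly96 and Tlr4 overlapped. In wild type with LPS it was headed by Cd14 at 844 and Tlr2 at 274 per kilobase, ahead of Tlr13 at 117, and no neighbours overlapped. Per kilobase, Tlr2 thus ranked 7 or 8 of the 10 members in the other 3 groups and 2 in wild type with LPS. These places depend on the length used. Counting all annotated exons (for Ly96 1021 bases in place of 632) moved Ly96 from rank 5 to rank 8 with LPS in the knock-in, and from rank 6 to rank 8 in both untreated groups. It moved Tlr2 from rank 7 to rank 5 with LPS in the knock-in, from rank 8 to rank 5 in untreated knock-in cells and from rank 8 to rank 7 in untreated wild type.

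**Figure D4:**
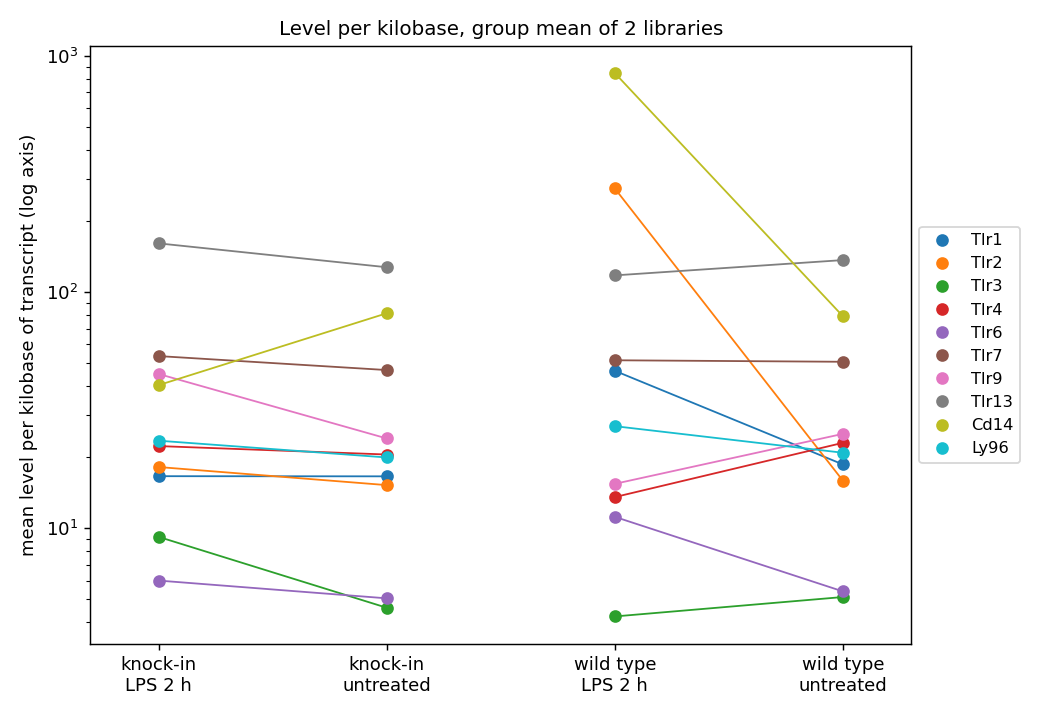
Mean level per kilobase of principal transcript (log axis) of each member in the 4 groups, with lines joining LPS and untreated groups of the same genotype. Cd14 and Tlr2 reach 844 and 274 per kilobase in wild type with LPS, and Tlr13 is the highest member in the other 3 groups.

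Genes with the profile most like each member over the 8 libraries were found by the root mean square difference of centred log2 levels, among 9261 other genes with a mean level of at least 5; this is a description and says nothing of shared function. For Tlr2 they were Icam1, an adhesion molecule (difference 0.11), and Csf1, a macrophage growth factor (0.11). For Cd14 they were Slc7a2, an arginine transporter (0.14), and Gpr85 (0.15), which like Cd14 were lowest in the knock-in LPS libraries: Slc7a2 averaged 1.52 in knock-in cells with LPS and 4.29 in untreated knock-in cells, 58.7 in wild type with LPS and 4.23 in untreated wild type. For Tlr9 they were Gbp8, a guanylate-binding protein gene (0.086), and Rnase6 (0.095), and for Tlr3 they were Pde7b, a phosphodiesterase gene (0.037), and Zbtb2 (0.069). Nsd1, a histone methyltransferase gene (0.055), and Rprd2 (0.060) lay nearest to Tlr4, Cd55 (0.054) and Mapk6 (0.058) to Tlr1, and Extl2 (0.060) and Fbxw11 (0.065) to Tlr6. Mki67ip (0.032) lay near Tlr13, Fam134b (0.038) and Noc3l (0.040) lay nearest to Tlr7, and Copb1 (0.047) and Ube2b (0.051) to Ly96.

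Around the members, 36 of 40 further genes of the pathway were tested, of which 20 rose and 6 fell with LPS in the knock-in comparison and 17 rose and 7 fell in wild type (limma). Over all tested genes 56.7% were called in the knock-in comparison (28.5% rose and 28.3% fell) and 57.6% in wild type (26.8% rose and 30.7% fell), the background also for the counts by role that follow. The remaining receptors of the family fell into an abundant gene and rare ones. Tlr8, an X-linked relative of Tlr7, was at 162 and 145 in knock-in cells with LPS, 169 and 156 in untreated knock-in cells, 158 and 144 in wild type with LPS, and 174 and 195 in untreated wild type. Its log2 change did not pass in the knock-in (-0.087, limma adjusted p = 0.245), and it fell by 0.28 in wild type (limma adjusted p = 4.12e-04). Tlr5, Tlr11 and Tlr12 were at or below 0.557 in every library and were not tested.

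With Tlr8 counted among them, 5 other receptors and co-receptors were tested. In the knock-in comparison 3 rose and 1 fell. In wild type 1 rose and 2 fell, Tlr8 among the latter. Cd180, which joins with the product of Ly86 into a receptor related to Tlr4, rose by 0.60 in the knock-in and by 0.24 in wild type, and Ly86 rose by 0.37 in the knock-in. Lbp, whose protein carries LPS to CD14, rose by 0.35 in the knock-in and fell by 0.29 in wild type. Cd36, a scavenger receptor that works with Tlr2, fell by 0.83 in the knock-in. These values are log2 changes with a limma adjusted p of at most 0.0303.

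Of 10 genes for folding, trafficking and processing of the receptors, 5 rose and 2 fell in the knock-in comparison, and 2 rose and 1 fell in wild type. Hsp90b1, which encodes the chaperone gp96 that folds most Toll-like receptors, was at 222 and 215 in knock-in cells with LPS and 483 and 492 in untreated knock-in cells. It was at 531 and 556 in wild type with LPS and 516 and 571 in untreated wild type. It fell by 1.15 on the log2 scale in the knock-in (limma adjusted p = 1.19e-15). The endosomal proteases that cut nucleic acid receptors rose there, with Ctss at 0.97, Ctsl at 0.69 and Lgmn at 0.36 (limma adjusted p of at most 1.25e-06). In wild type Rab10 (0.43) and Tmed7 (0.14), both linked to Tlr4 transport, rose and Cnpy3 (-0.16), a partner of gp96, fell (limma adjusted p of at most 0.0173). Tmed7 fell by 0.17 in the knock-in (limma adjusted p = 0.00444).

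Downstream of the receptors, 8 of 14 adaptor and kinase genes rose and 2 fell in the knock-in comparison, and 10 rose and 3 fell in wild type. Irak2, a kinase recruited through MyD88, rose by 0.58 in the knock-in and 2.36 in wild type. Ticam1 and Ticam2, adaptors of the interferon branch, rose by 0.26 and 0.35 in the knock-in and 1.48 and 1.52 in wild type. Tab1 fell by 0.24 in the knock-in and 1.87 in wild type. Traf3, Myd88 and Traf6 rose by 0.42, 0.42 and 0.37 in the knock-in and by 1.30, 1.01 and 0.58 in wild type. Of 7 tested genes that restrain the receptors, 4 rose and 1 fell in each genotype. Socs1 rose by 1.24 in the knock-in and 2.89 in wild type, Tnfaip3 by 0.47 and 5.44, and Irak3 by 0.49 and 1.11. Sigirr fell by 0.45 in the knock-in, and Tollip rose by 0.65 in wild type. All changes named here are on the log2 scale with a limma adjusted p of at most 0.0383.

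Set against wild type after LPS, 14 of the 36 tested pathway genes were higher and 19 lower in knock-in cells (limma), where 75.4% of all tested genes were called (38.5% higher and 36.8% lower). Of the folding and processing genes 7 were higher and 3 lower, led by Hsp90b1 at -1.31, Ctss at 1.12, Ctsl at 0.84 and Rab10 at -0.50. Among adaptors and kinases 3 were higher and 10 lower, with Tab1 at 1.81, Irak2 at -1.75, Ticam1 at -1.23 and Ticam2 at -1.20, and among the brakes 1 was higher and 5 lower, with Tnfaip3 at -4.92 and Socs1 at -1.25. Of the other co-receptors, Cd36 was at -0.86, Lbp at 0.61, Ly86 at 0.29 and Cd180 at 0.18. These are log2 differences, knock-in minus wild type, with a limma adjusted p of at most 0.00478. Between untreated genotypes no pathway gene passed, apart from 6 when untreated wild-type replicate 1 was left out. In the interaction test 11 of the 36 had a higher and 18 a lower LPS change in the knock-in, where 63.7% of all tested genes were called (31.8% in each direction), among them Ikbke, a kinase of the interferon branch, at -1.17 (limma adjusted p = 1.05e-12).

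**Figure D5:**
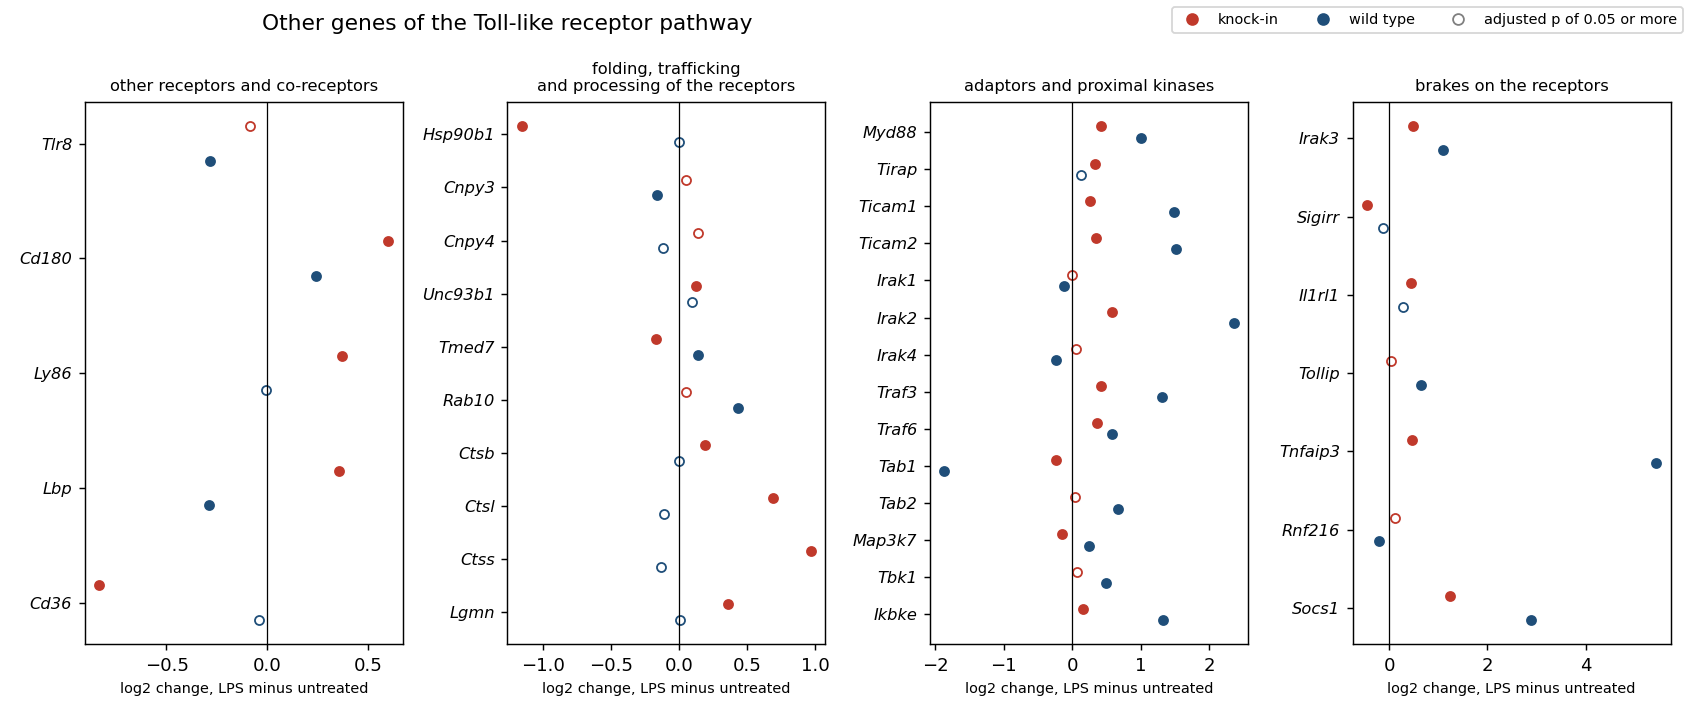
Log2 change with LPS (LPS minus untreated) of the 36 tested pathway genes that are not members, in knock-in and wild-type cells, by role; open points did not pass an adjusted p of 0.05. Tnfaip3 is at 0.47 in knock-in cells and at 5.44 in wild-type cells, and Hsp90b1 and Ctss move by -1.15 and 0.97 in the knock-in.

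Marker sums of other cells also differed between the libraries labelled knock-in with LPS and the untreated knock-in libraries, some higher and some lower. Several of these sums differed with LPS in wild type as well. The part of such markers in the results was not tested. Beside the stromal markers given above, of which Col1a1 stood at 17.2 and 20.2 in knock-in cells with LPS and at 5.10 and 4.56 in untreated knock-in cells, mast cell and basophil markers summed to between 89.2 and 92.2 in knock-in cells with LPS, 37.1 and 38.1 in untreated knock-in cells, 69.1 and 69.2 in wild type with LPS, and 37.7 and 38.2 in untreated wild type. Neutrophil markers summed to between 523 and 531 in knock-in cells with LPS and 380 and 389 in untreated knock-in cells. They summed to between 793 and 809 in wild type with LPS and 380 and 391 in untreated wild type. Of the 9 tested, 7 rose in each genotype, where 28.5% of all tested genes rose in the knock-in comparison and 26.8% in wild type. Dendritic cell markers summed to between 45.6 and 46.6 in knock-in cells with LPS, 73.5 and 76.2 in untreated knock-in cells, 107 and 108 in wild type with LPS, and 74.0 and 75.9 in untreated wild type. Most of that sum was Itgax and H2-Ab1. Itgax averaged 4.34 in knock-in cells with LPS and 35.1 in untreated knock-in cells, whereas H2-Ab1 averaged 40.5 and 37.4. Of the 4 tested, 0 rose and 2 fell in the knock-in comparison, and 4 rose and 0 fell in wild type. Cd209a and Siglech were at 0 in both LPS groups, had at most 4 reads in any untreated library and were not tested. B and T cell markers summed to between 46.6 and 49.9 in knock-in cells with LPS, 75.8 and 77.3 in untreated knock-in cells, 76.1 and 81.1 in wild type with LPS, and 79.3 and 80.0 in untreated wild type. Most of that sum was Cd4, which averaged 41.4 in knock-in cells with LPS and 64.6 in untreated knock-in cells. Of the 7 tested macrophage markers, 1 rose and 4 fell in the knock-in comparison and 2 rose and 2 fell in wild type. Over all tested genes 28.5% rose and 28.3% fell in the knock-in comparison, and 26.8% and 30.7% in wild type. With LPS, Fcgr1 was at 3.18, Mrc1 at 0.473 and Itgam at 0.703 times the untreated level in the knock-in. In wild type they were at 0.927, 1.03 and 1.07 times.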

How the data were processed

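Per the submitters' processing notes, reads were processed with TopHat2 2.0.9, bedtools and edgeR on the mm9 genome; for counting rule, strand and annotation the status is: not given in the sources used here. The authors deposited 1 table of 23366 genes by 8 libraries, whose values are a signal: read counts per gene divided by a scaled library size, which has the form of TMM-scaled CPM. The form was read from the numbers themselves: 100% of those above 0 are whole multiples of 1 read within a tolerance of 0.001. Whole reads recovered in this way were used as an alternative.

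Since the deposited signal is already scaled, 2-sided limma tests (limma 3.58.1, R 4.3.3; eBayes with trend) were run on log2(value + 1). The filter required 1 or more in 2 libraries and left 11919 genes. All 8 libraries entered a model of 4 group means (4 residual and 19.1 prior degrees of freedom). Calls used a Benjamini-Hochberg adjusted p under 0.05 over all genes tested, in each of 5 comparisons. Fold changes on this scale understate the change of low genes, and ratios given as "-fold" or "times" are of group means. SE and 95% intervals are limma's. The comparisons share groups and are not independent of each other.

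The members, the lists and the alternatives were chosen with earlier results of these data known. The text names the members in every comparison, up to 4 of the largest called changes per pathway list in each comparison, the 2 genes most like each member (for Tlr13 1 of them is not reported here), and marker lists with examples. Promoters are RefSeq's on GRCm38.p6, and transcript lengths are from GENCODE vM21 on GRCm38; both are another build than mm9 and were used only for sequence, length and overlap. Ly6g was not in the table, and Adgre1 was matched under its older symbol Emr1. Alternatives were other pseudocounts (0.1 and 5), filters (none and 5), scalings, tests (edgeR 4.0.16 and DESeq2 1.42.0 on recovered reads), a robust trend, the groups of a comparison alone, each library left out and a replicate block; exon union length was added after the data were seen.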

Additional observations from a re-analysis of the deposited data

Results flagged for a closer look

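The LPS effect differed between genotypes, by limma's interaction test, for 9 of the 10 members, where 63.7% of all tested genes passed the same test. The differences, knock-in effect minus wild-type effect on the log2 scale, were -4.41 for Cd14, -3.83 for Tlr2, -1.30 for Tlr1, -0.78 for Tlr6, 0.17 for Tlr7, 0.55 for Tlr13, 0.87 for Tlr4, 1.22 for Tlr3 and 1.59 for Tlr9, at a limma adjusted p of at most 0.0340. Cd14, Tlr3, Tlr9 and Tlr13 passed in opposite directions in the 2 genotypes. What share of all tested genes did so was not counted.

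Over the pathway list, 29 of the 36 tested genes passed, 11 with a higher and 18 with a lower change in the knock-in. Among the 24 genes named for their called LPS changes, a choice that favours passing, 22 passed at a limma adjusted p of at most 0.0434, and Tlr8 (0.20, limma adjusted p = 0.0553) and Sigirr (-0.32, limma adjusted p = 0.207) did not. The differences of the 22 on the log2 scale were -4.97 for Tnfaip3, -1.78 for Irak2, -1.64 for Socs1, -1.22 for Ticam1, -1.17 for Ticam2, -1.16 for Hsp90b1, -0.88 for Traf3, -0.79 for Cd36, -0.62 for Irak3, -0.61 for Tollip, -0.59 for Myd88, -0.38 for Rab10, -0.31 for Tmed7 and -0.21 for Traf6. They were 0.21 for Cnpy3, 0.36 for Lgmn, 0.36 for Cd180, 0.37 for Ly86, 0.64 for Lbp, 0.80 for Ctsl, 1.10 for Ctss and 1.63 for Tab1. The knock-in LPS libraries also differ from the other 6 in sex, which cannot be told apart from the labels here.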

How the results depend on the processing

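Of 957 combinations of a member, a comparison and an alternative setting, 920 kept their direction and their side of the threshold, 16 lost a call, 12 gained one and 9 changed sign. Of the sign changes, 1 involved a call, Tlr7 with LPS in wild type, which was 0.021 as reported and -0.39 after quantile normalization. The other 8 were of estimates that passed neither way: Tlr1 with LPS in the knock-in at -0.036 after quantile normalization, -0.0088 in edgeR, -0.026 without knock-in LPS replicate 1 and -0.0015 without untreated knock-in replicate 1 (up to 0.029 with another library left out); Tlr7 in knock-in against wild type with LPS at -0.0018 without knock-in LPS replicate 1 and 0.12 without replicate 2; and, between untreated genotypes, Tlr2 at 0.013 without knock-in replicate 2 (-0.14 without replicate 1), Tlr6 at 0.025 without wild-type replicate 1 (-0.20 without replicate 2) and Ly96 at 0.0062 without knock-in replicate 1 (-0.13 without replicate 2). The cause was not tested. With each library left out in turn, 4 to 8 members were called with LPS in the knock-in, and 0 to 6 pathway genes between untreated genotypes, the 6 without untreated wild-type replicate 1. Between untreated genotypes all-gene calls were 1 as reported, 0 with no filter, 2 with a pseudocount of 5 or without the knock-in LPS libraries, 18 with a robust trend, 64 in DESeq2 (42.2% of them higher in the knock-in) and 483 without untreated wild-type replicate 1. Whether same-numbered libraries were prepared together is not labelled. Their deviations correlated at -0.12 to 0.14 between groups, which cannot settle it with 2 libraries a group. With the replicate block, 8 members were called for the knock-in LPS effect, 9 for the wild-type LPS effect and 8 between genotypes with LPS. It gave 0 between untreated genotypes and 9 in the interaction, and all these counts are the same without it. Without the knock-in LPS libraries, 9 members were called with LPS in wild type and 0 between untreated genotypes. Where 1 library was left out, the lone one was assumed to vary like the other groups. With 2 libraries a group, precision is limited by their number rather than by depth.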
